A study of Mus musculus with 778 samples.

Results

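The clustered replication-type histone genes are the rows of the count table whose symbol begins with Hist1h, Hist2h, Hist3h or Hist4h. There were 69 such genes among the 23201 of the table, with 6 genes for the linker histone H1, 19 for H2A, 19 for H2B, 12 for H3 and 13 for H4. Of these, 55 belonged to the Hist1 set, 10 to Hist2, 3 to Hist3 and 1 to Hist4. They were read in single oocytes of wild type female ICR mice by single-cell RNA-seq of poly(A) RNA with unique molecular identifiers (UMIs), random tags that let the copies of a molecule be counted once. Stages followed the oocyte diameter, with non-growing oocytes (NGO, under 20 μm, 46 cells) from mice of 3 to 4 days, and growing oocytes GO1 (30 to 45 μm, 51 cells), GO2 (50 to 55 μm, 26 cells) and GO3 (60 to 65 μm, 44 cells) and fully-grown oocytes (FGO, over 70 μm, 56 cells) from mice of 3 to 4 weeks. NGO therefore differed from every other stage in mouse age as well, and stage and age cannot be told apart in that step.

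Replication-type histones are made in S phase, when new DNA is packed into nucleosomes of H2A, H2B, H3 and H4, with H1 on the linker DNA. Their mRNAs are the known exception to polyadenylation in animal cells, because they end a few bases after a short stem-loop in the 3′ UTR that is bound by the stem-loop binding protein SLBP and cut with the help of the U7 small nuclear RNP. Oocytes grow while arrested in meiotic prophase, outside S phase, and store histone mRNA and SLBP for the embryo. A library that captures poly(A) RNA sees only copies of these mRNAs that carry a tail, so the values below are levels of tailed copies and say nothing of the stem-loop-ended form.

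The stem-loops are shown first, because they are the element that these mRNAs normally end on. Of the 67 members with an annotated stop codon, 63 had an exact match to the histone stem-loop consensus, 16 bases long, within 200 bases after the stop codon on the sense strand. The capitals below are the 16 bases of the stem-loop, and 5 bases on either side are in lower case, as DNA of the gene's strand in NCBIM37 (mm9).

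Hist1h2bc: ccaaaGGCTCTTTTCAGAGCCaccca

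Hist3h2ba: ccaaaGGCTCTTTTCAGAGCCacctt

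Hist1h2bk: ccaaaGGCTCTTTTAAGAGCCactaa

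Hist1h2aa: aaaaaGGCTCTTTTCAGAGCCacctt

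Hist2h3b: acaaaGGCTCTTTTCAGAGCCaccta

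Hist1h1e: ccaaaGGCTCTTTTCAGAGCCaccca

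Hist1h4h: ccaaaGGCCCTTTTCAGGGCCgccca

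Hist1h4a: ccaaaGGCCCTTCTCAGGGCCgccca

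These members reached 1 UMI per 1000000 in any stage, and at least 1 comes from each protein group. In the order printed, the capitals lie at chr13:23776516-23776531 (plus strand), chr11:58762851-58762866 (plus), chr13:22128169-22128184 (plus), chr13:24026760-24026775 (plus), chr3:96073058-96073073 (plus), chr13:23713651-23713666 (minus), chr13:23623327-23623342 (plus) and chr13:23852669-23852684 (minus). The core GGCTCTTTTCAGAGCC was the most frequent, in 39 members of the linker, H2A, H2B and H3 groups, and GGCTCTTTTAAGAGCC stood in 9 members of the same groups. The H4 genes carried other stems, with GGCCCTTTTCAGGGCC in 8 of them. The stem-loop therefore separated H4 from the other core histones but not the abundant members from the others, since the core of *Hist1h2bc* was also that of *Hist1h1e* and of members without a UMI, such as *Hist1h2bf*.

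The most abundant member differed in how its annotated mRNA ends. The gene *Hist1h2bc* (chr13:23776068-23784357, plus strand) has 2 exons in GENCODE vM1, and its first exon, which holds the whole coding sequence, stops at position 23776490, before the stem-loop. The stem-loop thus lies in the intron of the annotated transcript, and the transcript ends in an untranslated second exon of 313 bases (chr13:23784045-23784357) behind a polyadenylation signal. The end of *Hist3h2ba* (chr11:58762413-58763032, plus strand, 1 exon), the member with the next highest level, also carries such a signal, and lies 166 bases past a stem-loop that stays in the exon. Both ends are shown from the signal, in capitals, to the annotated end of the transcript, with the signals at chr13:23784331-23784336 and chr11:58763009-58763014.

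Hist1h2bc: AATAAAtgtcatgtaaagcaaaaaaaa

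Hist3h2ba: AATAAAtttggttcaattttggcc

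The stem-loop after the stop codon lay in an exon of an annotated transcript in 45 members and only in an intron in 3 (*Hist1h2bc*, *Hist1h2bq* and *Hist1h2br*). It lay across or past the annotated end in 15, such as *Hist1h2bk*, whose annotation stops 16 bases before the end of its stem-loop. For *Hist2h2bb* (chr3:96073644-96082924, plus strand) no exact match followed the stop codon. An exact stem-loop was found at chr3:96074094-96074109, in the intron between its 2 exons, and it reads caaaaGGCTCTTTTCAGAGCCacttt. The other 3 members without an exact match were *Hist1h2al*, *Hist1h2an* and *Hist2h2be*, with 3, 1 and 4 mismatches at best.

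The level of a gene in a stage is its UMIs in all cells of that stage per 1000000 UMIs of the stage (CPM). Since a UMI counts a molecule once, CPM compares genes without a correction for length. Stage totals lay between 24976634 and 64311908 UMIs, single cells between 22279 and 3898137, and the 10 deepest cells held 80.4% of the UMIs of GO1 and 73.2% of those of GO2. Which library a cell came from is not in the column names. A stage could therefore only be used as 1 pooled sample without replicates, and stages were compared without a test. Intervals are exact at 95% and cover counting error only, and a 0 allows up to 3 UMIs, which is 0.119 CPM in NGO and 0.0466 CPM in FGO. Summed oocyte markers stood at 15213 to 28531 CPM in every stage. Summed markers of granulosa cells stood at 16.5 to 44.3 CPM, of stroma at 2.06 to 13.5 CPM and of blood and vessel at 4.64 to 48.8 CPM, nearly all of the last from *Pecam1*, with both globin genes and *Cd52* at 0 UMIs in all stages.

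Tailed copies of the clustered histone genes were few, and most of them came from a small number of genes. The 69 members together held 1927 UMIs in NGO and then 7714, 6969, 16107 and 23618 UMIs from GO1 to FGO. That is 76.5 CPM in NGO and then 288, 279, 323 and 367 CPM from GO1 to FGO. The sum rose 3.77-fold from NGO to GO1 (95% counting interval 3.59 to 3.97) and stood 4.80-fold above NGO in FGO (4.58 to 5.03). Every cell of every stage had at least 1 UMI of a member. When each cell was given equal weight, by averaging its own CPM with those of the other cells of its stage, the 5 stages stood at 65.5, 328, 267, 347 and 368 CPM. Values given as 5 numbers in a row are in the order NGO, GO1, GO2, GO3, FGO.

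Of the 69 members, 52 had a UMI in any cell, 17 reached 1 CPM in any stage and 4 reached 10 CPM (*Hist1h2al*, *Hist1h2bc*, *Hist1h2bk* and *Hist3h2ba*). *Hist1h2bc* was the only member with at least 10 CPM in every stage. A further 5 had at least 1 CPM in every stage, namely *Hist1h2aa*, *Hist1h2al*, *Hist1h4h*, *Hist2h3b* and *Hist3h2ba*. The 35 members that had UMIs but stayed under 1 CPM comprised 3 linker, 10 H2A, 9 H2B, 8 H3 and 5 H4 genes, so most genes of every protein group stayed under 1 CPM or had no UMI.

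**Figure D1:**
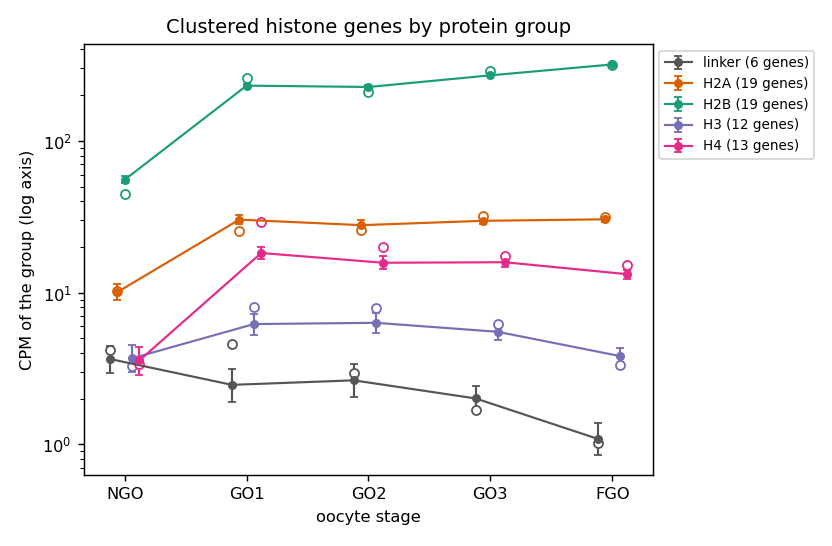
CPM of the 5 protein groups (vertical, log axis) in the 5 stages. Filled points with lines are sums over cells with 95% counting intervals, and open points are averages of single-cell CPM; H2B lies above all other groups in every stage, from 55.5 CPM in NGO to 319 in FGO, and the linker genes fall from 3.65 to 1.09 CPM.

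H2B genes gave most of the signal. The H2B group stood at 55.5, 231, 226, 270.2 and 319 CPM, which was 72.5% of member UMIs in NGO and 86.8% in FGO. From NGO to GO1 the group rose 4.17-fold (3.93 to 4.42). Without *Hist1h2bc* the other 18 H2B genes summed to 6.67, 47.7, 42.4, 35.8 and 33.8 CPM, so they rose more steeply at the first step than *Hist1h2bc* and were lower in FGO than in GO1.

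H2A and H2B pair as dimers in the nucleosome, but their tailed mRNAs were not of similar level. The H2A group stood at 10.1, 30.3, 27.8, 29.7 and 30.4 CPM, and rose 3.00-fold from NGO to GO1 (2.61 to 3.47). After GO1 its total stayed within 27.8 to 30.4 CPM.

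H4 and H3 form the tetramer at the core of the nucleosome. The H4 group stood at 3.57, 18.2, 15.7, 15.9 and 13.2 CPM and rose 5.11-fold from NGO to GO1 (4.07 to 6.47), with an interval that overlapped that of H2B. The H3 group stood at 3.69, 6.205, 6.33, 5.52 and 3.83 CPM and rose 1.68-fold (1.30 to 2.19), or 0.75 on the log2 scale. That is under 2-fold, but the change passed 2-fold as a mean over cells (1.31), in cells thinned to 20000 UMIs (1.27) and without the 10 deepest cells of each stage (1.66). Without *Hist2h3b* the other 11 H3 genes summed to 1.87 CPM in NGO and 3.89 CPM in GO1, also over 2-fold. H3 and H4 were thus at nearly equal levels in NGO and apart in all later stages, where H4 had more.

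Linker histone genes were lowest in FGO. Their sum was 3.65, 2.47, 2.64, 2.01 and 1.09 CPM, and FGO stood 3.35-fold below NGO (2.43 to 4.65). The step from NGO to GO1 was small and changed sign with the weighting of the cells, since the means over cells were 4.17 and 4.61 CPM. The share of the linker genes among member UMIs went from 4.77% in NGO to 0.296% in FGO.

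**Figure D2:**
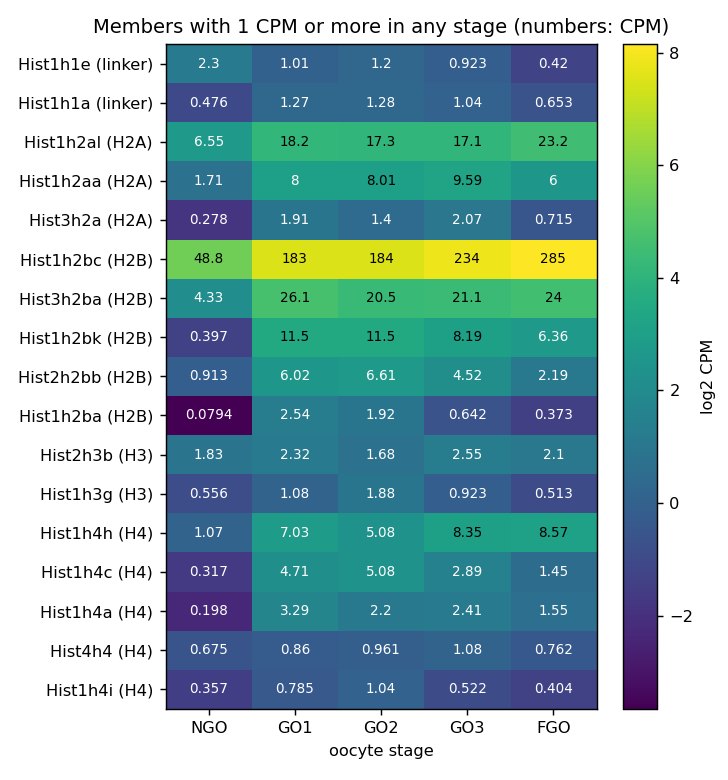
Heat map of the 17 members with at least 1 CPM in any stage (rows, with their protein group) over the 5 stages (columns); colour is log2 CPM and the printed numbers are CPM. Hist1h2bc is the brightest row in every stage, and Hist1h1e is the only row with its highest value in NGO.

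Changes of single members were read by a rule of size, a difference in CPM of 2-fold or more, where the higher of both stages had 10 CPM or more. From NGO to GO1, 4 members could be judged and all 4 were higher in GO1, where 20.6% of the 8527 genes judged were higher and 25.7% lower. The median log2 difference of the 4 was 2.25, beside -0.15 over all genes judged. As 3 of the 4 were under 10 CPM in NGO and came into the count through the later stage, the number carries little weight by itself. As a mean over cells *Hist1h2al* was under 2-fold and *Hist1h2bk* was under 10 CPM in GO1 (7.58 CPM). *Hist1h4h* passed the rule in that weighting, with 0.917 CPM in NGO and 11.8 CPM in GO1. From NGO to FGO, 3 of 3 members judged were higher, where the rule gave 11.3% higher over all genes and a larger share lower. Of these members, *Hist1h2al* (6.55 CPM in NGO) and *Hist3h2ba* (4.33 CPM in NGO) were under 10 CPM in NGO. Both came into the count only through FGO, so this number also carries little weight by itself. In the later steps none of the 3 or 4 members judged changed by 2-fold, where the rule gave 0.109% of genes higher and 3.03% lower from GO1 to GO2, 3.34% higher and 1.01% lower from GO2 to GO3, and 2.41% higher and 3.54% lower from GO3 to FGO.

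With the minimum set at 1 CPM, a limit chosen after the levels were seen, 12 of 15 members judged were higher in GO1 than in NGO and 1 was lower (*Hist1h1e*), where the same rule gave 23.8% of all genes higher and 27.7% lower. The members that passed in neither direction were *Hist1h3g* and *Hist2h3b*, both H3 genes. Of the 12, 7 were under 1 CPM in NGO and came into the count only through GO1, so the count is no support for a rise of the members. From NGO to FGO, 9 of 11 were higher and 1 was lower, where the rule gave 14.1% of all genes higher and 19.3% lower, and 4 of the 9 came in only through FGO in the same way. From GO2 to GO3, 2 of 17 members judged were lower (*Hist1h2ba* and *Hist1h3g*), where 2.84% of all genes were lower. From GO3 to FGO, 2 of 13 were lower (*Hist2h2bb* and *Hist3h2a*), where 6.72% of all genes were lower. The direction of *Hist3h2a* turned in thinned cells (0.65 on the log2 scale, with a UMI in 1 GO3 cell and 2 FGO cells).

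*Hist1h2bc*, an H2B gene, was the leading member in every stage. It stood at 48.8, 183, 184, 234 and 285 CPM, with 40734 UMIs in all. Of the 50-base words of its transcript, 52.7% were found in no other protein-coding transcript or member. In its last 300 bases all words were its own. Part of its UMIs may belong to other genes where reads fell in the shared part. GO1 was 3.76-fold above NGO (3.53 to 4.00), and FGO 5.84-fold above NGO (5.51 to 6.19). The size of the first step depended on the weighting of the cells, at 1.91 on the log2 scale in the sums and 2.01 to 2.93 under the 7 alternatives. As a mean over cells it went from 38.03 to 217.8 CPM, and without the 10 deepest cells of each stage from 27.5 to 209.6 CPM. FGO stood 1.22-fold above GO3 in the sums (1.19 to 1.24), or 0.28 on the log2 scale, but the alternatives ran from -0.025 in thinned cells to 0.32, so the direction of this last step did not hold under all of them.

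Most NGO cells lay below most cells of the later stages in *Hist1h2bc*, although the ranges overlapped. In NGO the lowest cell had 0 CPM, the median cell 26.8 and the highest 224, and 3 of 46 cells exceeded 100 CPM. In GO1 the lowest, median and highest cells had 31.7, 201 and 609 CPM, and in GO2 they had 0, 158.7 and 296 CPM. The corresponding values were 119.4, 233 and 654 CPM in GO3 and 96.2, 274 and 521 CPM in FGO. Of the NGO cells, 29 lay below the lowest GO1 cell, while 55 of 56 FGO cells exceeded 100 CPM. The highest NGO value was exceeded by 20 of 51 GO1 cells, 8 of 26 GO2 cells, 27 of 44 GO3 cells and 36 of 56 FGO cells. A single NGO cell held 19.5% of the *Hist1h2bc* UMIs of that stage. When every cell was thinned to 20000 UMIs, the gene had a UMI in 45.7% of NGO cells, 92.2% of GO1, 88.5% of GO2, and in every GO3 and FGO cell, against 43 of 46 NGO cells, 25 of 26 GO2 cells and all cells of the other stages unthinned.

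**Figure D3:**
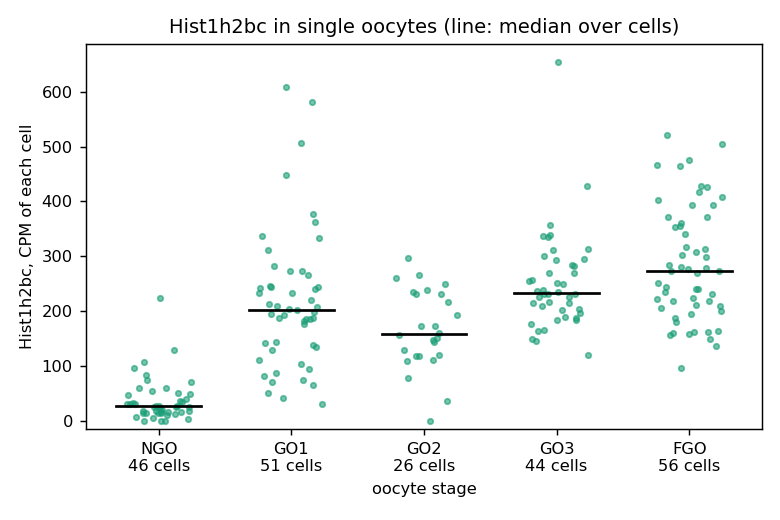
CPM of Hist1h2bc in each single oocyte (points) by stage, with the median over cells as a black line; horizontal scatter within a stage has no meaning. The median is 26.8 CPM in NGO and 201, 158.7, 233 and 274 CPM from GO1 to FGO, and a single NGO cell stands out at 224 CPM.

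The other H2B genes above 1 CPM were all higher in GO1 than in NGO and then took different courses. *Hist3h2ba* stood at 4.33, 26.1, 20.5, 21.1 and 23.98 CPM, a 6.03-fold rise at the first step (4.92 to 7.45) and little movement after it. It was highest in GO1 in the sums and in FGO as a mean over cells (23.7 CPM in GO1 and 24.5 in FGO). *Hist1h2bk* (chr13:22127690-22128168, plus strand) stood at 0.397, 11.5, 11.5, 8.19 and 6.36 CPM, 29.01-fold higher in GO1 than in NGO (15.6 to 61.1) from 10 UMIs in NGO. It was seen in 8 of 46 NGO cells and in 44 of 44 GO3 cells, and in 21 of 51 GO1 cells, whose median depth was 110146 UMIs beside 972294 in GO3. When the transcript of *Hist1h2bk* was cut into short words of bases, only 26.3% were found in no other protein-coding transcript or member. Part of its UMIs may therefore belong to other genes. *Hist2h2bb*, whose annotated coding sequence runs on into the second exon, stood at 0.913, 6.02, 6.61, 4.52 and 2.19 CPM and fell 2.06-fold from GO3 to FGO (1.66 to 2.56). *Hist1h2ba*, the testis H2B gene known as TH2B, stood at 0.0794, 2.54, 1.92, 0.642 and 0.373 CPM, from 2 UMIs in NGO to 68 in GO1, a ratio of 32.02 with a wide interval (8.53 to 270). *Hist1h2bk*, *Hist2h2bb* and *Hist1h2ba* had their highest value in GO1 or GO2, also as a mean over cells and without the 10 deepest cells.

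Among the H2A genes, *Hist1h2al* led. It stood at 6.55, 18.2, 17.3, 17.1 and 23.2 CPM, and rose 2.78-fold from NGO to GO1 (2.33 to 3.34). As a mean over cells it went from 7.02 to 13.3 CPM, which is 0.92 on the log2 scale and under 2-fold. *Hist1h2al* lies at chr13:51298057-51298434 on the minus strand, apart from the main Hist1 cluster of the chromosome, and no exact stem-loop lies within 200 bases of its stop codon. Only 28.6% of its 50-base words were found in no other protein-coding transcript or member, so part of its UMIs may belong to other H2A genes; how reads that fit several genes were treated is not given in the sources used here. *Hist1h2aa*, the testis H2A gene known as TH2A, stood at 1.71, 7.999, 8.007, 9.59 and 6.002 CPM, and 97.7% of its words were its own. It rose 4.69-fold from NGO to GO1 (3.37 to 6.67) and stood 1.60-fold lower in FGO than in GO3 (1.39 to 1.83), a direction that turned in thinned cells (0.24 on the log2 scale, with a UMI in 6 and 5 cells). *Hist3h2a*, at 0.278, 1.91, 1.40, 2.07 and 0.715 CPM, overlaps *Trim17* on the same strand, and reads of the 2 genes cannot be told apart in the overlap.

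*Hist1h4h* was the leading H4 gene, at 1.07, 7.03, 5.08, 8.35 and 8.57 CPM. It was 6.56-fold higher in GO1 than in NGO (4.37 to 10.2). Its highest stage was FGO in the sums and GO1 as a mean over cells (11.8 CPM in GO1 and 10.2 in FGO). *Hist1h4c* and *Hist1h4a* were higher in GO1 than in NGO as well. *Hist1h4c* stood at 0.317, 4.71, 5.08, 2.89 and 1.45 CPM and *Hist1h4a* at 0.198, 3.29, 2.20, 2.41 and 1.55 CPM, with 14.8-fold (7.30 to 35.1) and 16.6-fold (6.84 to 52.3) rises from NGO to GO1 on 8 and 5 UMIs in NGO. Both were lower in FGO than in GO3, a direction that turned in thinned cells (0.24 and 1.24 on the log2 scale, with a UMI in 1 GO3 cell and 3 FGO cells for each). The remaining H4 genes above 1 CPM, *Hist1h4i* and *Hist4h4*, stayed between 0.357 and 1.08 CPM in all stages. The share of own 50-base words was 54.2% for *Hist1h4h*, 56.4% for *Hist1h4c* and 59.6% for *Hist1h4a*. Part of the UMIs of these genes may therefore belong to other genes.

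Neither H3 gene above 1 CPM passed the 1 CPM rule from NGO to GO1. *Hist2h3b*, the leading H3 gene, stood at 1.83, 2.32, 1.68, 2.55 and 2.10 CPM, and the GO1 to NGO ratio of 1.27 (0.853 to 1.90) spanned 1. *Hist1h3g* stood at 0.556, 1.08, 1.88, 0.923 and 0.513 CPM, with its highest value in GO2. Only 20.3% of the 50-base words of *Hist2h3b* and 45.9% of those of *Hist1h3g* were their own, so these levels may be shared between H3 genes.

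*Hist1h1e* was the leading linker gene and the only member above 1 CPM that was highest in NGO. It stood at 2.30, 1.01, 1.201, 0.923 and 0.420 CPM, 5.48-fold lower in FGO than in NGO (3.42 to 9.005). *Hist1h1a* took another course, at 0.476, 1.27, 1.28, 1.04 and 0.653 CPM. *Hist1h1c* had 17 UMIs in NGO and 0 in every later stage, at least 6.02-fold lower in GO1 and at least 14.5-fold lower in FGO when 3 UMIs per stage are taken as the limit of a 0. Those 17 UMIs came from 3 cells, with 5, 6 and 6 each. The stromal markers, which were highest in NGO at 13.5 CPM, had 6, 0 and 0 UMIs in the same 3 cells.

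The stromal UMIs of NGO lay mostly elsewhere, with 48.4% of them in 1 cell that held 86 member UMIs. Without that cell the NGO members summed to 74.97 CPM and *Hist1h2bc* to 47.3 CPM, close to the 76.5 and 48.8 CPM with it. Granulosa markers summed to more in GO1 (44.3 CPM) than in NGO (16.5 CPM), led by *Cyp19a1* and *Nr5a2*, but the 12 genes did not move together. At a minimum of 1 CPM, 4 of 6 judged were higher (*Inha*, *Cyp19a1*, *Nr5a2* and *Kitl*), beside 23.8% of all genes. *Inhba* was lower, beside 27.7% of all genes, *Fshr* was neither, and the other 6 were not judged. *Pecam1* rose from 4.604 to 37.6 CPM. Without the GO1 cell with the most granulosa marker UMIs (14.9% of those of the stage) the GO1 members summed to 301 CPM and *Hist1h2bc* to 193 CPM. Without the cell with the most blood and vessel marker UMIs (22.7%) they summed to 281 and 176 CPM. Both cells were chosen by UMIs and not by the markers' share of the cell, so a cell can be chosen for its depth alone. The part of surrounding cells in the remaining difference was not tested.

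H2A and H2B genes often stand head to head, with a shared promoter between their starts, and 13 such pairs were found among the members with gaps under 500 bases. In the 3 pairs with the most UMIs the tailed mRNAs of the partners were far from equal. Across all cells, 7 pairs had more UMIs of the H2B gene, 4 had fewer, and 2 pairs had no UMI in either gene. The tally carries little weight, because several of these pairs held 7 UMIs or fewer in each gene, such as *Hist2h2be* (7) and *Hist2h2ac* (3). The 4 also include *Hist3h2a* with *Hist3h2bb-ps*, a pseudogene with 0 UMIs. *Hist1h2bc* had 40734 UMIs and its partner *Hist1h2ac* had 14, which stood at 0.0397, 0.112, 0.120, 0.120 and 0.0155 CPM over the stages. *Hist1h2bk* had 1422 UMIs and its partner *Hist1h2ah* had 43. The pair of *Hist1h2aa* (1321 UMIs) and *Hist1h2ba* (174 UMIs) went the other way, and here both genes rose from NGO to GO1.

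The gaps of the first 2 of these pairs are printed from the plus strand of NCBIM37 because each lies between 2 genes of unequal level. Capitals mark the octamer ATTTGCAT, the TATA motif TATAAA and the CCAAT motif, each on either strand, so TTTATA and ATTGG are the same motifs read from the minus strand. The H2A gene starts to the left on the minus strand and the H2B gene to the right on the plus strand.

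Hist1h2ac and Hist1h2bc, chr13:23775818-23776067: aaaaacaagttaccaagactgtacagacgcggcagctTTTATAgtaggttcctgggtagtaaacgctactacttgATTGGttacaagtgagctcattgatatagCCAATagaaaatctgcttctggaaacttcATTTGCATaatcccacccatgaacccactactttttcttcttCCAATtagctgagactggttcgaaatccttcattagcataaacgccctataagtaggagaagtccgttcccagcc

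Hist1h2ah and Hist1h2bk, chr13:22127513-22127689: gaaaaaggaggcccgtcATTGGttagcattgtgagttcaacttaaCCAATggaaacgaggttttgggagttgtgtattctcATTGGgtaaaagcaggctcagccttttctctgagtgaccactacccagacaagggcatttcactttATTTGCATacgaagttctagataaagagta

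Each gap held 1 octamer and 3 CCAAT motifs. The gap of *Hist1h2ac* and *Hist1h2bc* also held 1 TATAAA, on the side of the H2A gene and read from its strand. Over the RefSeq promoters (GRCm38.p6, 250 bases before to 50 after the start, 62 of 69 members matched), the octamer was found in 7 of 18 H2A and 7 of 16 H2B promoters and in 0 of the linker, H3 and H4 promoters, beside 1.74% of 32851 promoters of all genes. The members not matched included *Hist1h2bc* and *Hist1h2al*, while *Hist1h2ao* and *Hist1h2ap* were matched to the same RefSeq gene. TATAAA was found in 56.5% of the members' promoters, beside 13.6% of all. CCAAT was found in all linker, H2A, H2B and H3 promoters and in 3 of 12 H4 promoters, beside 37.4% of all. These are matches of letters only, and all 3 motifs were found in promoters of detected and of undetected members.

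**Figure D4:**
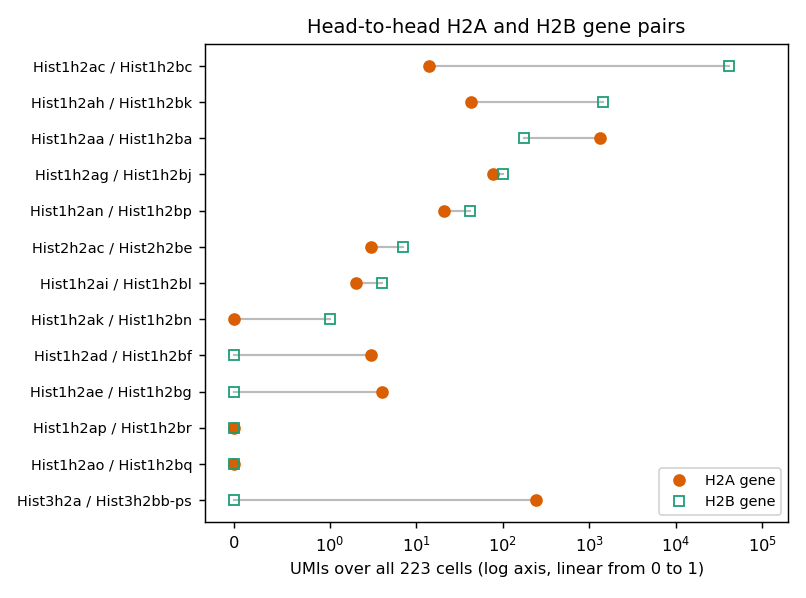
UMIs over all cells (horizontal, log axis, linear from 0 to 1) of the H2A gene (filled circle) and the H2B gene (open square) of the 13 head-to-head pairs. The pair of Hist1h2ac and Hist1h2bc is the widest, with 14 and 40734 UMIs, and Hist1h2aa exceeds Hist1h2ba with 1321 against 174.

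An annotated end beyond the stem-loop did not by itself go with a high level. Among the 63 members with a stem-loop after the stop codon, 14 had an annotated end more than 200 bases past it, and 2 of these reached 1 CPM (*Hist1h2bc* and *Hist3h2a*). Of the 49 with a nearer end, 13 reached 1 CPM. A polyadenylation signal (AATAAA or ATTAAA, starting 10 to 40 bases before an annotated end) was found for 17 members, of which 6 reached 1 CPM (*Hist1h2bc*, *Hist1h4a*, *Hist1h4h*, *Hist1h4i*, *Hist3h2a* and *Hist3h2ba*), and was missing for 52 members, of which 11 reached 1 CPM. *Hist1h2bq* and *Hist1h2br*, the others of the 63 whose stem-loop lay only in an intron, had 0 UMIs. Only 2.12% of their 50-base words were their own, however. *Hist1h2bp*, whose stem-loop lies in the intron of a spliced transcript but in an exon of another, had 42 UMIs. *Hist2h2bb*, which is not among the 63 and has an exact stem-loop in its intron, had 715 UMIs.

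Some zeros could not be read as absence. Of the 17 members with no UMI, 6 had less than 10% of their 50-base words to themselves (*Hist1h2ao*, *Hist1h2ap*, *Hist1h2bq*, *Hist1h2br*, *Hist2h2aa1* and *Hist2h2aa2*), and 4 of these had none. *Hist1h4m*, also with no UMI, had 10.2% of its words to itself and none of those in its last 300 bases. A count for such genes depends on how reads that fit several genes were treated. The testis linker gene *Hist1h1t*, by contrast, had 0 UMIs although all of its words were its own.

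Genes that process and control histone mRNA were detected in every stage, and their levels did not move together. Of the 24 genes of a list for processing, transcription and decay of histone mRNA, 3 were higher and 8 lower in GO1 than in NGO by the 10 CPM rule, beside 20.6% and 25.7% of all genes judged, and the median log2 difference was -0.60 beside -0.15. From GO2 to GO3, 5 of 19 judged were higher (*Snrpb*, *Zfp473*, *Cstf2*, *Ccne1* and *Lsm1*), beside 3.34% of all genes. From GO3 to FGO none of the 20 genes judged changed by the rule, beside 2.41% of all genes higher and 3.54% lower. *Slbp*, the stem-loop binding protein, stood at 1289, 2354, 2790, 2607 and 3038 CPM, above the sum of all 69 members in every stage, and 1.83-fold higher in GO1 than in NGO (1.80 to 1.85). For the U7-specific proteins, *Lsm10* stood at 209, 410.4, 454, 484 and 462 CPM, and *Lsm11* at 7.74, 10.7, 6.25, 8.73 and 7.56 CPM. *Npat*, the coactivator of histone gene transcription, stood at 12.4, 13.2, 7.61, 10.2 and 8.38 CPM. *Casp8ap2*, also known as FLASH, which acts with U7 in the cut, stood at 80.5, 270.1, 253, 221 and 177 CPM, and rose 3.35-fold from NGO to GO1 (3.19 to 3.53). *Eri1*, the nuclease that trims the stem-loop end, stood at 63.1, 86.8, 82.9, 95.5 and 95.3 CPM.

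By size of change from NGO to GO1, the list was led by 3 genes that fell and 1 that rose. *Snrpb*, a core Sm protein shared by spliceosomal and U7 particles, fell 11.6-fold, from 287 to 24.7 CPM, and stood at 56.2 CPM in GO3. The cleavage factor gene *Cstf2* fell 6.84-fold, from 28.1 to 4.11 CPM, and stood at 11.3 CPM in GO3. The cap-binding gene *Ncbp1* fell 5.90-fold, from 24.7 to 4.19 CPM. *Ccne2*, a cyclin of the start of S phase, rose 6.51-fold, from 38.2 to 249 CPM.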

How the data were processed

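Single oocytes were profiled by RNA-seq of poly(A) RNA with UMIs. Reads were split by cell barcode by the authors and, after trimming, aligned with Tophat against the mouse transcriptome (mm9). Duplicates were collapsed by UMI, and the authors deposited raw counts of UMIs per gene and cell. The handling of reads that fit several genes is not given in the sources used here. Cells came from 4 libraries, and column names give the stage and not the library, so each stage was 1 pooled sample without replicates. Oocytes were picked by hand, and doublets were not searched for.

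UMIs were summed by stage and divided by the stage total (CPM). Sums carry exact Poisson intervals, and ratios carry exact binomial ones for how the UMIs of a gene divide between 2 stages, at 95% and for counting error only. A gene counted as higher or lower with a 2-fold difference and at least 10 CPM in the higher stage; a minimum of 1 CPM was added later. Members named are those with at least 10 CPM, the leader of each group, members in counts of 5 or fewer and, chosen after their values were seen, the others above 1 CPM and the partners in pairs. From the lists, *Slbp*, *Npat*, *Lsm10*, *Lsm11*, *Casp8ap2*, *Eri1*, *H3f3a*, *H3f3b*, *H2afz* and *H1foo* are always given, with up to 4 more by size of change. The members and lists were chosen with earlier results of these data known.

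Positions and stem-loops come from NCBIM37 (the build of mm9) with GENCODE vM1, counted from 1. The sharing of sequence was counted in words of 50 bases. Promoters are those of RefSeq on GRCm38.p6. Alternatives were DESeq2 1.42.0 size factors and edgeR 4.0.16 TMM factors (scaling only), means over cells, cells thinned to 20000 UMIs and 26 cells per stage. Sums were also taken without the 10 deepest cells or without the cell with the most member UMIs. Limits of 1.5-fold and 50 CPM, and no minimum, were used as well. The tools were R 4.3.3 and Python 3.11.15 with scipy 1.17.1, numpy 2.4.6, pandas 2.3.3 and matplotlib 3.10.9. The iscCOOL-seq data were not analysed here.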

Additional observations from a re-analysis of the deposited data

How the results depend on the processing

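No paired analysis was possible because the columns carry no library and each stage is 1 sample. The rise of the member total from NGO to GO1, 1.91 on the log2 scale, was 2.02 with DESeq2 size factors, 2.06 with TMM factors, 2.33 as a mean over cells, 2.28 in thinned cells, 2.11 with 26 cells per stage, 2.63 without the 10 deepest cells and 2.04 without the cell with the most member UMIs. In the same order, from NGO to FGO (2.26) it was 2.35, 2.41, 2.49, 2.36, 2.42, 2.72 and 2.40, and 1.57 without *Hist1h2bc*. For H2B from NGO to GO1 (2.06) it was 2.16, 2.21, 2.55, 2.45, 2.32, 2.97 and 2.23, and 2.84 without *Hist1h2bc*.

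In the same step, H2A (1.59) moved to 1.32 as a mean over cells. H3 (0.75) moved to 1.31 as a mean over cells, 1.27 in thinned cells and 1.66 without the 10 deepest cells, so it passed 2-fold in these. H4 (2.35) moved to 3.12, 4.90 and 3.19 under the same settings, with 1 NGO cell with a UMI behind the thinned value. The linker group (-0.57) moved to 0.14 as a mean over cells, 0.067 without the 10 deepest cells and 0.11 without *Hist1h1e*. Without *Hist2h3b*, H3 also passed 2-fold, from 1.87 to 3.89 CPM. The 4 members higher in GO1 became 1 at 50 CPM, 24 without a minimum and 12 at 1 CPM, and the 3 higher in FGO than in NGO became 1, 17 and 9. *Hist3h2a*, lower in FGO than in GO3, came out higher in thinned cells (0.65 on the log2 scale), on 1 and 2 cells with a UMI.

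Of 331 values for single members, 273 stayed within the counting interval of the sums. In 19 values, for 13 changes, the sign was opposite to that of the sums, 7 of them in thinned cells. *Hist3h2a* was the only one of these whose change was 2-fold or more in the sums. From NGO to FGO *Hist2h3b* (0.20) came to -1.87 in thinned cells. The DESeq2 and TMM factors shifted all genes by 0.10 and 0.15 from NGO to GO1. GO1 and GO2 sums rest on few deep cells, and spread between libraries and animals is unknown.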

Other observations

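Replacement histones can be made outside S phase, from mRNAs with poly(A) tails. Their genes stood above the clustered genes in sum, mostly through *H1foo* and *H3f3b*. The 12 genes of the list summed to 7795, 16430, 21494, 19809 and 18459 CPM from NGO through GO1, GO2 and GO3 to FGO. *H1foo*, the oocyte linker histone, stood at 4651, 9435, 13459, 11723 and 10129 CPM, while the clustered linker genes summed to 3.65, 2.47, 2.64, 2.01 and 1.09 CPM. *H3f3b*, a gene for histone H3.3, stood at 1621, 5253, 6458, 6268 and 6233 CPM, and *H3f3a*, for the same protein, at 625, 551, 469, 432 and 417 CPM. *H2afz*, for H2A.Z, stood at 352, 225, 156.6, 384 and 489 CPM. Other genes of the list were lower, such as *H2afy* at 59.01, 18.8, 18.1, 16.7 and 21.6 CPM and *H1fx* at 1.15, 4.71, 3.48, 2.45 and 3.37 CPM, and in FGO *H2afv* (138.3 CPM) and *Cenpa* (114.1 CPM) also stood below *Hist1h2bc* (285 CPM). By the 10 CPM rule 4 of 10 judged rose from NGO to GO1 (*H3f3b*, *H2afv*, *H1foo* and *Cenpa*) and 1 fell (*H2afy*), beside 20.6% and 25.7% of all genes.

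Few genes of a list for DNA replication and cell proliferation passed the rule. Of the 20 genes of the list, 2 were higher in GO1 than in NGO (*Mki67* and *Top2a*) and 1 was lower (*Gins2*), beside 20.6% and 25.7% of all genes. From GO3 to FGO 0 of the 20 changed, beside 2.41% of all genes higher and 3.54% lower. Their sum stood at 1739 to 1939 CPM in all 5 stages. *Mki67* stood at 26.5 CPM in NGO and 67.8 in GO1, *Top2a* at 27.9 and 58.9 CPM, and *Gins2* at 97.9 and 44.5 CPM.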
